A study of Mus musculus with 9 samples.

Results

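The genes described here are 7 genes of the Schwann cell and glial lineage, *Erbb3*, *Ngfr*, *Gfra3*, *Foxd3*, *Egr2*, *Fabp7* and *Mbp*, which were chosen by name and matched from their Ensembl identifiers among 54232 genes counted in mouse cochlear ducts. RNA sequencing was done at embryonic day 14.5 on ducts that carried a gene trap null allele of *Prdm16*, a transcriptional regulator made in the epithelium of Kölliker's organ, the transient epithelial ridge on the medial side of the duct. The 3 genotypes were WT, heterozygote (Prdm16-het, 1 cGT allele) and null (Prdm16-null, 2 cGT alleles), with 3 embryos each, on an FVB/NJ background and with no other treatment or allele. Each library came from the microdissected ducts of both inner ears of 1 embryo, so that it holds whichever cells stayed with the duct. The trap is carried by every cell of the embryo and was not restricted to a cell type.

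Schwann cells and the satellite glia of the spiral ganglion arise from the neural crest and travel with the growing auditory nerve. Crest cells that make FOXD3 and SOX10 become Schwann cell precursors, which depend on neuregulin signalling from axons through the receptors ERBB3 and ERBB2. They later switch on EGR2 and, with it, the genes of compact myelin such as *Mbp*. In the ear SOX10 is also made by the otic epithelium itself, and several of these genes are active in other cells, so a level in a dissected duct is not a count of glia.

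Library totals ran from 24095322 to 30819118 counts. Levels are given as CPM, the counts relative to library size, scaled by edgeR's TMM factors, on which 3 counts, the limit used here for a gene that is barely detected, are worth 0.0968 to 0.126 CPM. *Prdm16* itself was at 225, 197 and 184 CPM in the WT ducts, at 151, 123 and 141 CPM in heterozygotes and at 23.7, 19.1 and 27.4 CPM in the nulls, so every library matched its labelled genotype. Of the markers of the duct's own epithelium, *Epcam* was at 603 CPM or more in all 9 libraries and the prosensory gene *Fgf20* at 11.5 to 42.5 CPM. Markers of the surrounding tissue differed between libraries: the summed CPM of 7 mesenchyme markers was 516, 971 and 96.4 in WT embryos 1 to 3, 39.6, 85.2 and 58.7 in the heterozygotes and 54.7, 28.8 and 1281 in the nulls. An eighth marker of that list, *Dcn*, was left out of this sum after its levels were seen, since it was at 118 CPM or more in every library. WT embryos 1 and 2 and null embryo 3 therefore stood apart, as they did for 7 endothelial markers, at 86.9, 71.2 and 50.9 summed CPM against 2.61 to 6.69 in the other 6 libraries. The counts of members called were also computed without those 3 libraries.

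The members covered a wide range of levels when compared per transcript length, as TPM, computed from the counts and the union of each gene's exons. *Erbb3* stood first at a median of 517 TPM over the 9 libraries (393 to 547), above 99.1% of the genes tested. *Mbp* came next at 29.0 TPM (25.3 to 30.0), followed by *Ngfr* at 16.2 TPM (12.4 to 22.4). *Erbb3* and *Mbp* were each above the next gene in 9 of 9 libraries, with no overlap of the ranges. *Fabp7* was at 9.89 TPM (4.39 to 17.7) and *Egr2* at 3.43 TPM (1.98 to 8.76). The TPM ranges of *Ngfr* and *Fabp7*, and those of *Fabp7* and *Egr2*, overlapped. *Foxd3* at 0.472 TPM (0.133 to 1.66) and *Gfra3* at 0.464 TPM (0 to 1.09) were last and could not be ordered, *Foxd3* being the higher in 4 of 9 libraries. The 7 genes kept the same order when the longest transcript was used as the length.

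Against other genes of the lineage, the ducts held a mixture of high and barely detected levels. *Sox10*, the crest and glial transcription factor that the otic epithelium shares, was at 1213 TPM (1058 to 1266). *Cdh19*, a cadherin of Schwann cell precursors, was at 0.361 TPM (3 to 19 counts) and *Dhh*, the hedgehog ligand of Schwann cells, at 0.119 TPM (0 to 9 counts). The myelin lipid-binding gene *Pmp2* had 0 counts in every library, which allows up to 0.0968 to 0.126 CPM. The label of the 7 genes was thus met unevenly: *Erbb3* and *Mbp* were well above the floor, *Foxd3*, *Gfra3*, *Cdh19* and *Dhh* were under 2 TPM in every library, and *Ngfr*, *Fabp7* and the crest genes *Itga4* (18.2 TPM) and *Ednrb* (14.4 TPM) lay in between.

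**Figure D1:**
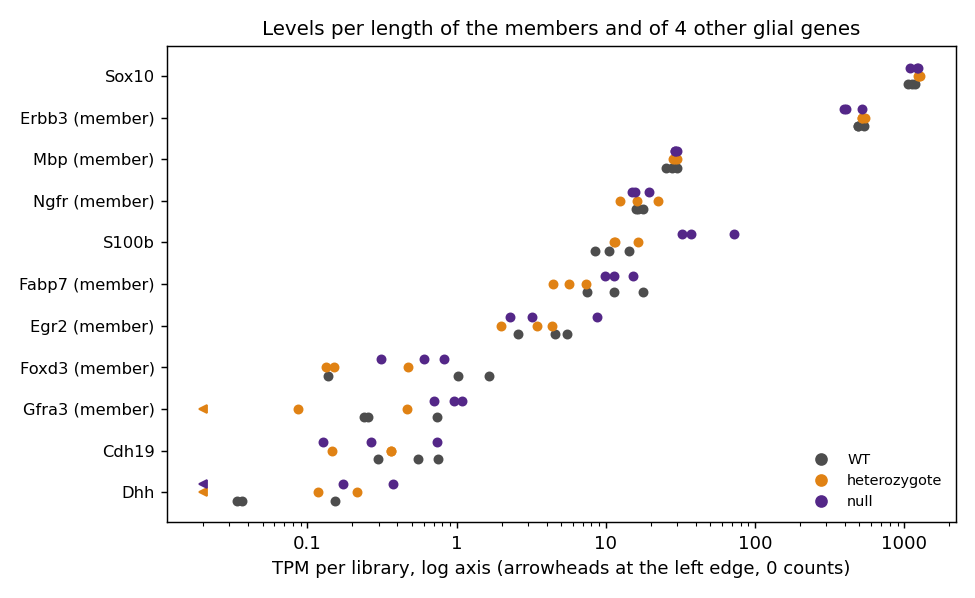
Level per length (TPM, log axis) of the 7 members and of 4 other genes of the lineage, 1 point per library, coloured by genotype. *Sox10* and *Erbb3* lie far to the right of the other genes, and *Foxd3*, *Gfra3*, *Cdh19* and *Dhh* lie below 2 TPM in all 9 libraries.

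The first question was whether any of the 7 genes depended on *Prdm16*. A gene was called when its adjusted p in edgeR's quasi-likelihood test (Benjamini-Hochberg over all genes tested) was under 0.05 and its log2 fold change was beyond 0.5 in either direction. None of the members was called in any of the 3 comparisons. In null against WT, 0 of 6 tested members were called, where 1.71% of 17168 genes were called, and 0 had an unadjusted p under 0.05. In heterozygote against WT, 0 of 5 tested members were called against 0.151% of 17269 genes, and 1 of them, *Fabp7*, had an unadjusted p under 0.05. In null against heterozygote, 0 of 5 were called against 0.615% of 17067 genes, and *Erbb3* and *Fabp7* had an unadjusted p under 0.05. Over all genes tested, 12.2%, 13.1% and 11.4% had an unadjusted p under 0.05 in the 3 comparisons in this order. *Gfra3* had too few counts for a test in every comparison, and *Foxd3* in those with the heterozygotes. With so few members, a count of 0 lies close to what these background shares give. DESeq2 called 0, 0 and 1 members in the same comparisons, and limma-voom 0, 0 and 0; the 1 was *Fabp7*. The count of edgeR calls stayed at 0 in each comparison without WT embryos 1 and 2 and null embryo 3. The median log2 fold change of the tested members was 0.052, 0.033 and 0.066 in the order above, against 0.0097, 2.9e-05 and 0.012 over all genes tested.

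**Figure D2:**
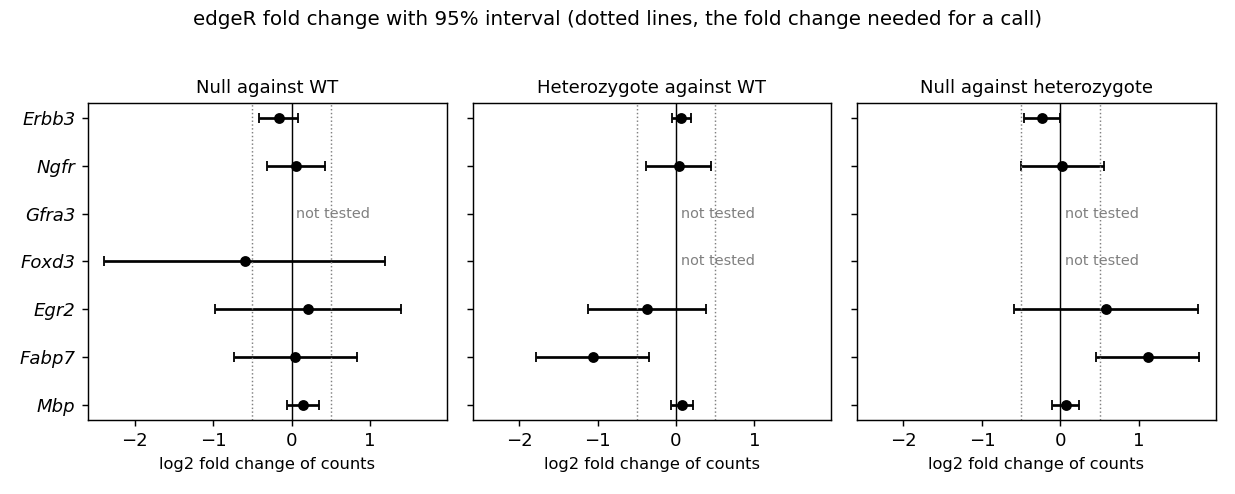
Log2 fold change of counts of each member (edgeR, horizontal axis) with its 95% interval in null against WT, heterozygote against WT and null against heterozygote. The intervals of *Erbb3* and *Mbp* are narrow and within 0.5 of 0, that of *Foxd3* spans -2.39 to 1.19, and *Fabp7* lies at -1.06 and 1.11 in the comparisons with the heterozygotes.

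Of the receptors, *Erbb3* (ENSMUSG00000018166, chr10:128567523-128589652, minus strand, mm10) encodes the neuregulin receptor through which axons keep Schwann cell precursors alive. The bulk counts do not show which cells of the duct made it. *Erbb3* was at 684, 686 and 743 CPM in the WT ducts, 760.3, 721 and 737 CPM in heterozygotes and 706, 619 and 565 CPM in the nulls. Null embryos 2 and 3 were the lowest of the 9 libraries, null embryo 1 lay within the WT range, and the nulls did not overlap the heterozygotes. The mean was 704.5 ± 33.5 CPM in WT, 739.5 ± 19.8 CPM in heterozygotes and 630.1 ± 71.1 CPM in the nulls (SD, n = 3). The log2 fold change in null against WT was -0.17 (SE 0.106, 95% interval -0.41 to 0.079, edgeR adjusted p = 0.596). In null against heterozygote it was -0.23 (95% interval -0.46 to -0.0021, unadjusted p = 0.0484, adjusted p = 0.437 by edgeR), and in heterozygote against WT it was 0.069 (95% interval -0.052 to 0.19, adjusted p = 0.643). All 3 intervals lay within the 0.5 needed for a call. Groups that do not overlap with the null lower were found in 9.04% of 17797 genes in null against heterozygote, and the exact permutation p of 0.1 is the smallest that 3 against 3 embryos can give. Without null embryo 3, in which the mesenchyme markers were highest, null against heterozygote was -0.16 for *Erbb3*, and without null embryo 1 it was -0.32 (adjusted p = 0.143). Null against WT ranged in the same fits from -0.090 without null embryo 3 to -0.25 without null embryo 1.

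The partners of *Erbb3* were measured in the same ducts. *Erbb2*, the co-receptor that supplies the kinase activity, was at 156 TPM (147 to 159), and the ligand gene *Nrg1* at 3.21 TPM (2.12 to 4.23), whereas *Nrg3* had at most 2 counts in any library. The receptors *Egfr* and *Erbb4* had medians of 7.57 and 5.32 TPM. None of the 6 tested genes of this neuregulin and ErbB list was called in any comparison, and its median log2 fold change in null against WT was -0.020. The ratio of *Erbb3* to *Sox10* counts was 0.816, 0.917 and 0.95 in WT, 0.861, 0.839 and 0.807 in the heterozygotes and 0.824, 0.661 and 0.712 in the nulls. Null embryos 2 and 3 were the lowest and null embryo 1 lay within the other genotypes. The ratio reuses the *Erbb3* counts given above, and *Sox10* was highest in null embryo 2, at 936 CPM. In bulk libraries of this kind fewer cells of a type and less RNA per cell cannot be told apart.

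*Ngfr* (ENSMUSG00000000120, chr11:95568818-95587735, minus strand, mm10) encodes the low-affinity neurotrophin receptor p75, a surface marker of crest cells and immature Schwann cells that mesenchyme and epithelia can also make. Its level was 13.2, 12.7 and 14.0 CPM in WT, 17.8, 9.80 and 13.2 CPM in heterozygotes and 12.3, 16.8 and 12.4 CPM in the nulls. The heterozygotes held both the highest and the lowest of the 9 values, and all the genotypes overlapped. The log2 fold changes were 0.056 in null against WT (95% interval -0.31 to 0.42, edgeR adjusted p = 0.915), 0.033 in heterozygote against WT (-0.38 to 0.44, adjusted p = 0.959) and 0.025 in null against heterozygote (-0.50 to 0.55, adjusted p = 0.975). The spread within heterozygotes, 4.01 CPM (SD, n = 3), was larger than the differences between the means, 13.3, 13.6 and 13.8 CPM. Among the neurotrophins and their receptors, *Maged1*, a p75-interacting protein, was highest at 1009 TPM, the ligand *Ntf3* was at 212 TPM and the receptors *Sort1* and *Ntrk3* were at 136 and 4.19 TPM. None of the 10 tested genes of that list was called in any comparison.

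*Gfra3* (ENSMUSG00000024366, chr18:34689898-34720387, minus strand, mm10) encodes the co-receptor for artemin, a ligand of the GDNF family, and is made in Schwann cell precursors and sensory neurons. It had 3, 3 and 10 counts in the WT libraries, 1, 0 and 6 counts in the heterozygotes and 12, 15 and 8 counts in the nulls. All 3 nulls lay above all 3 heterozygotes, and null embryo 3 lay below WT embryo 3. In CPM the means were 0.189 ± 0.13 in WT, 0.0865 ± 0.117 in the heterozygotes and 0.438 ± 0.0894 in the nulls (SD, n = 3), the library with 0 counts allowing up to 0.108 CPM. The exact permutation p was 0.1 in null against heterozygote, again the smallest possible, beside 8.89% of genes that were higher in the null without overlap. When edgeR was run with no filter on low counts, the adjusted p of *Gfra3* was 0.292 in null against heterozygote, 0.674 in null against WT and 0.762 in heterozygote against WT. It had 58 counts in all over the 9 libraries, and no difference was detected. Its relatives in the GDNF list were higher: *Nrtn* was at 80.2 TPM, *Gfra1* at 52.3 TPM, *Gfra2* at 10.7 TPM and *Artn*, the ligand of the GFRA3 protein, at 7.94 TPM. The signalling receptor *Ret* was at 2.26 TPM. None of the 8 tested genes of this list was called in any comparison, and 5 of them had an unadjusted p under 0.05 in null against WT, where 12.2% of all genes tested did. Those 5 were *Gfra1*, with a positive log2 fold change of 0.34 (edgeR adjusted p = 0.36), and *Ret*, *Gfra2*, *Gdnf* and *Artn*, with negative ones from -0.96 to -0.74 (adjusted p from 0.105 to 0.372).

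Of the transcription factors, *Foxd3* (ENSMUSG00000067261, chr4:99656299-99658622, plus strand, mm10) is a forkhead gene of neural crest and Schwann cell precursors that has a single exon. It had 2, 14 and 26 counts in the WT libraries, 2, 7 and 2 in the heterozygotes and 4, 15 and 8 in the nulls. WT embryo 1 was as low as the lowest heterozygotes and WT embryo 3 was the highest of all, so the genotypes overlapped. The means were 0.501 ± 0.406 CPM in WT, 0.135 ± 0.101 CPM in heterozygotes and 0.328 ± 0.16 CPM in the nulls (SD, n = 3). In null against WT the log2 fold change was -0.60 (SE 0.771, 95% interval -2.39 to 1.19, edgeR adjusted p = 0.805), and it was 0.11 without WT embryo 3. With no filter on low counts the adjusted p was 0.144 in heterozygote against WT and 0.684 in null against heterozygote. Of the other crest transcription factors listed with it, *Sox9* was at 276 TPM, *Snai1* at 46.7 TPM, *Msx1* at 27.1 TPM and *Ets1* at 3.87 TPM. *Msx1* was called, higher in heterozygote against WT, at 12.8, 14.1 and 15.0 CPM in WT and 20.6, 26.6 and 21.7 CPM in the heterozygotes. Its log2 fold change was 0.72 (SE 0.116, edgeR adjusted p = 0.0498), and of 6 fits that left out 1 embryo only that without WT embryo 3 called it (adjusted p = 0.00593), the others giving adjusted p from 0.0735 to 0.216. The call was also lost with limma-voom (adjusted p = 0.0648), with RLE normalization (0.0504) and with all 9 libraries in one fit (0.274), where the log2 fold change was 0.72. Without WT embryos 1 and 2 and null embryo 3, which leaves 1 WT library, the log2 fold change was 0.62. DESeq2 (adjusted p = 8.2e-06) and the fit with no filter on low counts (1.24e-07) were among the settings that also called *Msx1*. *Msx1* was the 1 gene called of 8 tested in that comparison, and no gene of the list was called by the main test in the other 2 comparisons. The list leaned the other way in heterozygote against WT: 6 of the 8 had a negative log2 fold change, and the median was -1.53. Of the 8, 6 had an unadjusted p under 0.05, against 13.1% of all genes tested. In the nulls *Msx1* was at 18.6, 23.1 and 20.1 CPM. Its log2 fold change in null against WT was 0.56 (SE 0.131, edgeR adjusted p = 0.101), which DESeq2 (adjusted p = 0.00856) and the fit of all 9 libraries (edgeR adjusted p = 0.0458) called. Null against heterozygote gave -0.16 (SE 0.138, edgeR adjusted p = 0.667).

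*Egr2* (ENSMUSG00000037868, chr10:67535475-67542188, plus strand, mm10), also called Krox20, is the zinc finger factor that drives myelination in Schwann cells and that many cell types also switch on briefly after stimulation. Its level was 2.04, 3.61 and 4.27 CPM in WT, 2.69, 1.55 and 3.47 CPM in heterozygotes and 2.48, 1.97 and 7.12 CPM in the nulls. The embryo numbered 3 was the highest within each genotype, null embryo 3 was the highest of all, and the genotypes overlapped. The log2 fold changes were 0.21 in null against WT (SE 0.51, 95% interval -0.97 to 1.39, edgeR adjusted p = 0.902), -0.37 in heterozygote against WT (-1.12 to 0.38, adjusted p = 0.701) and 0.58 in null against heterozygote (-0.59 to 1.75, adjusted p = 0.671). Without null embryo 3 the comparison with WT gave -0.58 and that with the heterozygotes -0.21, so the sign in both turned with that library, and the first also turned without WT embryo 1 (-0.037). The mesenchyme markers were also highest in null embryo 3, at 1281 summed CPM, and their part in its *Egr2* level was not tested.

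The level of *Egr2* moved between embryos with that of *Egr1*, its close relative and an early responder to growth factors. *Egr1* was at 196, 324 and 481 CPM in WT, 263, 214 and 427 CPM in heterozygotes and 269, 183 and 415 CPM in the nulls, and again the embryo numbered 3 was the highest in each genotype. Over the 9 libraries the log2 CPM of the pair correlated with Pearson's r = 0.855 (exact permutation p = 0.00259, adjusted p = 0.0155 over the 6 relations computed, 1 for each other gene of the Egr list) and Spearman's rho = 0.85 (exact permutation p = 0.00607, adjusted p = 0.0364). Without the 2 libraries farthest from the median of *Egr1* r was 0.925, and with the genotype means taken out it was 0.908. Neither the labels nor the methods say that the numbers mark a litter, a dissection or a sequencing run. For *Egr3* r was 0.733 (exact permutation p = 0.0242, adjusted p = 0.0727) and fell to 0.547 without the 2 farthest libraries. The relations of *Egr2* with *Egr4*, *Nab1*, *Nab2* and *Pou3f2* had adjusted p between 0.169 and 0.771.

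**Figure D3:**
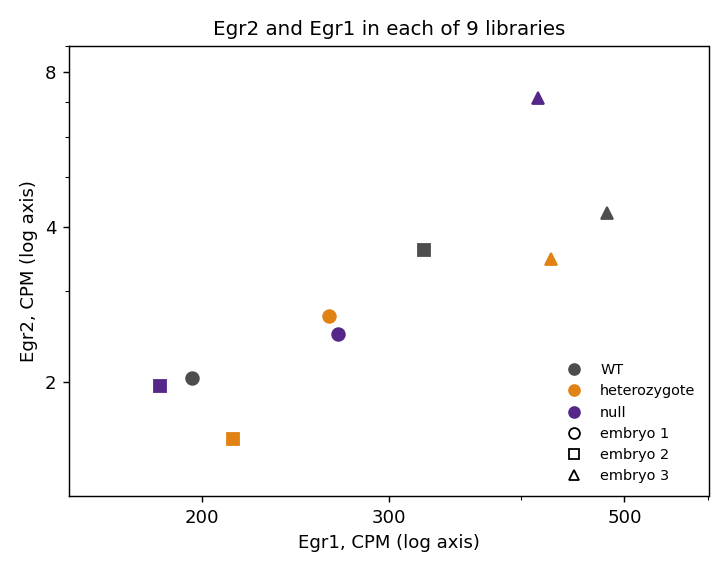
CPM of *Egr2* against CPM of *Egr1* in each of the 9 libraries, both on log axes, with the genotype as colour and the embryo number as symbol. The 3 embryos numbered 3 lie at the upper right, at 415 CPM of *Egr1* or more and 3.47 CPM of *Egr2* or more.

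*Pou3f2*, a POU factor that can take part in switching on *Egr2* in Schwann cells and was listed with it for that reason, was the 1 called gene of the 5 tested in the Egr list. *Pou3f2* was at 11.8, 9.25 and 11.1 CPM in WT, 8.15, 7.06 and 6.83 CPM in heterozygotes and 3.01, 2.32 and 2.26 CPM in the nulls. The heterozygotes lay below WT without overlap, as did 8.95% of 17797 genes. The nulls lay below the heterozygotes without overlap, as did 9.04% of these genes. *Pou3f2* fell in null against WT by 2.08 on the log2 scale (SE 0.195, edgeR adjusted p = 0.00316) and in null against heterozygote by 1.54 (SE 0.197, adjusted p = 0.0192). The first call was made in 6 of 6 fits that left out 1 embryo, and the second in 3 of 6, being lost without any 1 heterozygote (adjusted p from 0.103 to 0.122). In the same ducts the interval of *Egr2* in null against WT was -0.97 to 1.39.

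Because *Egr2* moved with *Egr1*, the windows around its annotated starts were read from RefSeq (GRCm38.p6), each from 250 bases before to 50 bases after a start, and searched on both strands for GTGGGCG (the EGR site) and for ACAAAG and ACAATG (SOX sites). Of its 5 windows, 3 of which overlap one another, the most upstream held a single match, to GTGGGCG on the opposite strand at position -31, shown in capitals. A further 3 windows held ATGCAAAT, the octamer bound by POU factors, which was added to the search after the windows were seen and lies at position -127 in the first of the 3.
Egr2, chr10:67535249-67535548, plus strand, CGCCCAC in capitals: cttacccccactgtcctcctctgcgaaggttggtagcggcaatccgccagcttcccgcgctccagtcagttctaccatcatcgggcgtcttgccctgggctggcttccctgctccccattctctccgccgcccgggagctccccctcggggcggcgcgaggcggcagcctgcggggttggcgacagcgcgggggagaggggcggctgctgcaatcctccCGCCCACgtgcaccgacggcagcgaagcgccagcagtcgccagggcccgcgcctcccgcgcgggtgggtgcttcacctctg
Egr2, chr10:67537619-67537918, plus strand, ATGCAAAT in capitals: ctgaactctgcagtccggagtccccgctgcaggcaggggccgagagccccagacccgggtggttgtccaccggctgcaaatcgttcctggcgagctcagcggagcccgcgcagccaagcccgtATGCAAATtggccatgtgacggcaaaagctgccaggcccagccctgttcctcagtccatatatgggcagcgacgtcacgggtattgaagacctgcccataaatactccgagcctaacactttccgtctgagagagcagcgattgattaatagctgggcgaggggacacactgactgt
These letters occur by background in 7.97% (GTGGGCG), 18.7% (ACAAAG), 12.6% (ACAATG) and 1.74% (ATGCAAAT) of 32851 RefSeq windows of 300 bases. A match is a run of letters in this window and no evidence of binding.

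*Fabp7* (ENSMUSG00000019874, chr10:57784881-57788450, plus strand, mm10) encodes the brain fatty acid binding protein, a lipid carrier of radial glia, satellite glia and early Schwann cells. In the comparisons with the heterozygotes its fold changes were the largest in size of those fitted for the members. In null against WT its fold change was the smallest in size. The heterozygotes, not the nulls, were apart. Its level was 2.18, 3.29 and 5.05 CPM in WT (59, 84 and 149 counts), 2.13, 1.26 and 1.68 CPM in the heterozygotes (53, 35 and 46 counts) and 2.81, 3.58 and 4.56 CPM in the nulls (68, 111 and 109 counts). All 3 heterozygotes lay below all 6 other libraries, WT embryo 1 being only just above heterozygote embryo 1. The means were 3.51 ± 1.45 CPM in WT, 1.69 ± 0.433 CPM in heterozygotes and 3.65 ± 0.882 CPM in the nulls (SD, n = 3). The log2 fold change in heterozygote against WT was -1.06 (SE 0.323, 95% interval -1.78 to -0.34, unadjusted p = 0.00851, edgeR adjusted p = 0.184). In null against heterozygote it was 1.11 (SE 0.287, 95% interval 0.45 to 1.77, unadjusted p = 0.00446, edgeR adjusted p = 0.192), and in null against WT it was 0.049 (SE 0.339, 95% interval -0.74 to 0.83, adjusted p = 0.968).

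Neither difference passed the test after adjustment, and both share the heterozygote libraries. The exact permutation p of each was 0.1, the smallest possible, beside 8.95% of genes that were lower in the heterozygotes than in WT without overlap and 8.89% that were higher in the nulls than in the heterozygotes. Only 2 settings called the gene: edgeR with no filter on low counts in heterozygote against WT (adjusted p = 0.00175), and DESeq2 in null against heterozygote (adjusted p = 0.037). Leaving out 1 embryo at a time gave -1.31 to -0.70 in heterozygote against WT, adjusted p from 0.112 to 0.449, and 0.92 to 1.31 in null against heterozygote, adjusted p from 0.113 to 0.621. The summed CPM of the 7 mesenchyme markers was 39.6, 85.2 and 58.7 in the heterozygotes, 54.7 and 28.8 in null embryos 1 and 2, 96.4 in WT embryo 3, and 516 to 1281 in the other 3 libraries. The 7 red blood cell markers had summed CPM of 155, 239 and 86.1 in WT, of 42.3, 36.7 and 57.7 in heterozygotes and of 122, 58.4 and 112 in nulls, so that every heterozygote was below every other library, as for *Fabp7*. All 5 red blood cell markers tested had a positive log2 fold change in null against heterozygote, with a median of 0.97, and 3 had an unadjusted p under 0.05, against 11.4% of all genes tested. The part of both lists in the level of *Fabp7* was not tested. Without WT embryos 1 and 2 and null embryo 3 the log2 fold changes were -1.58 in heterozygote against WT, which then rests on 1 WT library, and 0.93 in null against heterozygote. In that set null against WT was -0.65. The related carrier *Fabp5* was at 9.91 TPM and *Fabp3* at 2.63 TPM, while *Fabp4*, the carrier of fat cells, had at most 4 counts. Neither of the 2 tested genes of the family other than *Fabp7* was called in any comparison.

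**Figure D4:**
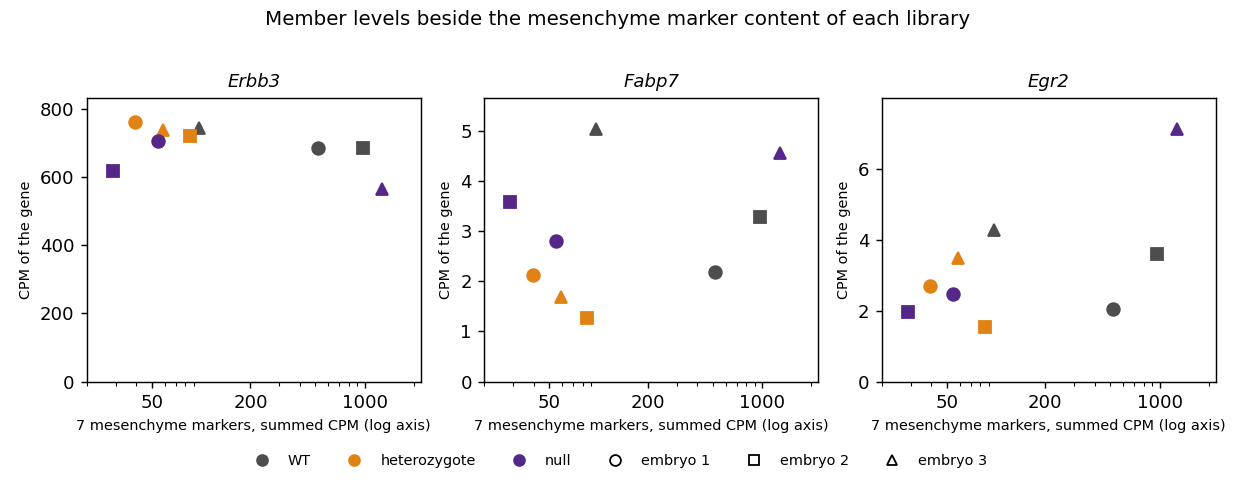
CPM of *Erbb3*, *Fabp7* and *Egr2* in each library (vertical axes from 0) against the summed CPM of 7 mesenchyme markers (log axis), with the genotype as colour and the embryo number as symbol. WT embryos 1 and 2 and null embryo 3 lie to the right at 516 or more, the other 6 libraries lie at 96.4 or less, and the 3 heterozygotes are the lowest for *Fabp7*.

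The RefSeq window around the start of *Fabp7* is shown because the heterozygotes did not overlap the other genotypes. None of the 4 letter runs occurs in it, nor in the windows of *Foxd3* and *Ngfr*. A window was used here for 4 of the 7 members.
Fabp7, chr10:57784673-57784972, plus strand: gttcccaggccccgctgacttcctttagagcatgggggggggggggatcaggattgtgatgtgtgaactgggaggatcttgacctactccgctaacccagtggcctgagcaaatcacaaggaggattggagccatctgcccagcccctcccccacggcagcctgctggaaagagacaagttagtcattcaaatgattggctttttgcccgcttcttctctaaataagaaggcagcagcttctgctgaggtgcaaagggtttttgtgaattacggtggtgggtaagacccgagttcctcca

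*Mbp* (ENSMUSG00000041607, chr18:82475146-82585637, plus strand, mm10) encodes myelin basic protein, and the same locus also gives the golli transcripts, which cells without myelin make. The counts here are summed over the gene, for which the annotation lists 16 transcripts, and do not tell these apart. It was at 49.7, 54.0 and 57.9 CPM in WT, 58.3, 56.4 and 56.0 CPM in heterozygotes and 57.7, 62.2 and 58.7 CPM in the nulls. WT embryos 1 and 2 were the lowest of the 9 and null embryo 2 the highest, and the genotypes overlapped. The means were 53.8 ± 4.09, 56.9 ± 1.21 and 59.6 ± 2.36 CPM in the same order (SD, n = 3). The null mean lay 5.74 CPM above that of WT, which is more than the SD within any genotype. The log2 fold changes were 0.14 in null against WT (SE 0.088, 95% interval -0.063 to 0.35, edgeR adjusted p = 0.587), 0.078 in heterozygote against WT (-0.066 to 0.22, adjusted p = 0.663) and 0.066 in null against heterozygote (-0.10 to 0.23, adjusted p = 0.729). None of its intervals reached 0.5.

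**Figure D5:**
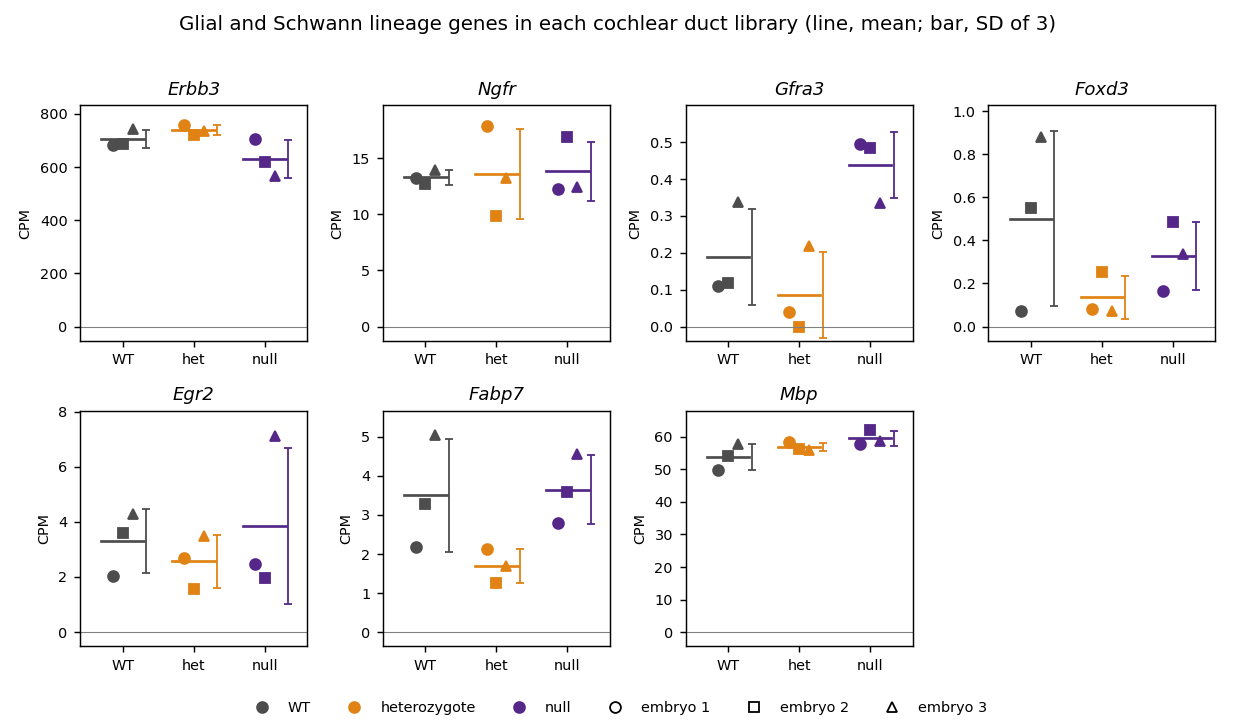
CPM of each member (vertical axis, its own scale) in the 9 libraries by genotype, with symbols for the embryo number, a line at the mean and a bar of 1 SD (n = 3). *Fabp7* is lowest in the 3 heterozygotes, the nulls lie above the heterozygotes for *Gfra3* at 8 to 15 counts, and *Mbp* and *Ngfr* overlap between all genotypes.

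The other myelin genes were likewise without a call. Of 18 genes listed, 12 could be tested in null against WT and 13 in the other comparisons, 0 were called in each, and their median log2 fold change was 0.014 in null against WT, -0.064 in heterozygote against WT and 0.046 in null against heterozygote. *Cnp*, an enzyme of myelinating cells and other tissues, was at 49.1 TPM, the tight junction gene *Cldn11* at 28.7 TPM and *Ugt8a*, which makes the main myelin lipid, at 16.8 TPM. *Pmp22*, a myelin gene that fibroblasts also make, was at 5.55, 8.97 and 3.32 CPM in WT, 2.77, 2.63 and 2.67 CPM in heterozygotes and 2.52, 2.71 and 37.6 CPM in the nulls. It was highest in the same 3 libraries in which the mesenchyme markers stood apart.

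Among 16 further genes of the Schwann lineage, *S100b*, a calcium-binding protein of Schwann cells that other cells of the ear may also make, was the 1 called gene. It was at 2.92, 3.61 and 4.81 CPM in WT, 5.62, 3.85 and 4.06 CPM in heterozygotes and 12.5, 12.2 and 25.4 CPM in the nulls. All 3 nulls lay above the heterozygotes, as was so for 8.89% of 17797 genes. *S100b* rose in null against WT with a log2 fold change of 2.13 (SE 0.338, edgeR adjusted p = 0.0241) and in null against heterozygote with 1.89 (SE 0.317, adjusted p = 0.0481). Of the fits that left out 1 embryo, 3 of 6 in null against WT passed, the call being lost without any 1 WT embryo (adjusted p from 0.0552 to 0.149). In null against heterozygote 2 of 6 passed, the call being lost without any 1 heterozygote or without null embryo 1 (adjusted p from 0.0624 to 0.28). Fits without null embryo 3 passed with lower values for *S100b*, 1.70 and 1.45, and without WT embryos 1 and 2 and null embryo 3 it was 1.36 (adjusted p = 0.0498) and 1.46 (adjusted p = 0.00651). The call in null against heterozygote was also lost with limma-voom (adjusted p = 0.0818) and with genes over a mean count of 100 (adjusted p = 0.0547). The list's other tested genes, 12 in null against WT and 11 in null against heterozygote, were not called. With *S100b* included, 9 of 13 had a negative log2 fold change in null against WT, with a median of -0.25. In null against heterozygote 8 of 12 were positive, with a median of 0.31. In heterozygote against WT 7 of 12 were negative, and 4 had an unadjusted p under 0.05, against 13.1% of all genes tested. *Sox10* was at 839, 748 and 782 CPM in WT, 883, 859 and 914 CPM in heterozygotes and 857, 936 and 794 CPM in the nulls. The log2 fold change of *Sox10* was 0.12 in null against WT (SE 0.0985, edgeR adjusted p = 0.68). *Itga4*, an integrin of crest cells, was at 18.2 TPM, *Ptprz1*, a receptor phosphatase of glia, at 26.7 TPM and *Ttyh1*, a membrane protein of neural cells, at 34.9 TPM.

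Of the lists that mark other cells of the dissection, 2 held a called gene. *Stmn2*, a tubulin regulator of young neurons, fell in null against WT by 2.96 (SE 0.286, edgeR adjusted p = 0.00343) and in heterozygote against WT by 1.42 (SE 0.135, adjusted p = 0.0107) on the log2 scale, and it was the 1 called of 11 neuron markers tested. *Fgf20*, a ligand of the prosensory epithelium, rose in null against WT by 1.35 (SE 0.203, edgeR adjusted p = 0.0194). Of 6 fits that left out 1 embryo, only that without null embryo 3 called *Fgf20*, the others giving adjusted p from 0.0636 to 0.114. The call of *Stmn2* in heterozygote against WT was lost without heterozygote embryo 2 or 3 (adjusted p = 0.0924 and 0.0911), when the 9 libraries were fitted together (adjusted p = 0.196) and without WT embryos 1 and 2 and null embryo 3 (adjusted p = 0.282). Of the 14 neuron markers, *Isl1*, which the otic epithelium also makes, had 4182 to 8162 counts, *Dcx* 447 to 1141, *Tubb3* 204 to 331, *Nefm* 7 to 397 and *Nefl* 4 to 187, whereas *Neurod1* and *Neurog1* had at most 4. Without *Isl1* the list summed to 57.9, 62.7 and 72.1 CPM in WT, 41.5, 51.8 and 43.9 CPM in heterozygotes and 38.0, 30.9 and 68.4 CPM in the nulls. In heterozygote against WT 5 of 11 had an unadjusted p under 0.05, against 13.1% of all genes tested, among them *Gap43* at -2.83, *Nefl* at -2.44 and *Nefm* at -2.18 (edgeR adjusted p = 0.0649, 0.154 and 0.157). In null against heterozygote, which shares the heterozygote libraries, 6 of 11 did, against 11.4% of all genes tested, and the values of these genes were 2.16, 3.53 and 3.15 (adjusted p = 0.311, 0.317 and 0.317). No melanocyte, mesenchyme, endothelial, red blood cell or macrophage marker was called in any comparison, but many had an unadjusted p under 0.05. In heterozygote against WT these were 5 of 7 melanocyte, 7 of 8 mesenchyme, 6 of 6 endothelial, 5 of 5 red blood cell and 3 of 5 macrophage markers tested, with median log2 fold changes of -1.58, -2.91, -3.25, -1.82 and -2.40. WT embryo 3 was close to the heterozygotes in 2 of these lists. Its endothelial markers summed to 3.29 CPM against 3.77 to 6.69 CPM, and its mesenchyme markers without *Dcn* to 96.4 CPM against 39.6 to 85.2 CPM. Its red blood cell and melanocyte sums, 86.1 and 78.5 CPM, were above every heterozygote. Markers of a list share libraries and are not separate evidence. In null against WT 6 of 7 melanocyte markers had an unadjusted p under 0.05, and all 7 had a negative log2 fold change, with a median of -2.14. All 8 epithelium markers had a positive log2 fold change in each of the 3 comparisons, which share libraries, with medians of 0.36 in null against WT, 0.16 in heterozygote against WT and 0.18 in null against heterozygote. Of these 4, 3 and 4 had an unadjusted p under 0.05, against 12.2%, 13.1% and 11.4% of all genes tested. They summed to 9529 to 10990 CPM in WT, 11190 to 11640 CPM in heterozygotes and 12350 to 16380 CPM in the nulls. Most of each sum was *Oc90*, at 7740, 7242 and 8455 CPM in WT. It was at 9175, 8867 and 8755 CPM in heterozygotes and at 10600, 13370 and 10030 CPM in the nulls. In null against WT *Epcam*, *Cdh1* and *Gata3* had log2 fold changes of 0.065, 0.0050 and 0.093. Those of *Oc90*, *Otx2* and *Lmx1a* were 0.53, 0.50 and 0.50. The 7 melanocyte markers, from a second crest lineage, summed to 120, 168 and 78.5 CPM in WT, 45.5, 62.5 and 44.5 CPM in heterozygotes and 28.5, 24.5 and 66.9 CPM in the nulls. The part of these lists in the levels of the members was not tested.

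The members were also compared with each other over the 9 libraries. None of the 21 pairs passed after adjustment. The closest were *Fabp7* with *Gfra3* (Pearson's r = 0.713, exact permutation p = 0.0331, Spearman's rho = 0.667, exact p = 0.0589) and *Foxd3* with *Fabp7* (r = 0.703, exact permutation p = 0.0376, rho = 0.75, exact p = 0.0255), each with an adjusted p of 0.371 for r. Without the 2 libraries farthest from the median of the first-named gene r was 0.491 and 0.495. *Erbb3* and *Fabp7*, the members with an unadjusted p under 0.05 in a comparison, gave r = -0.497 (exact permutation p = 0.176, adjusted p = 0.613).

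Among all tested genes, those most like a member in log2 CPM over the 9 libraries were mostly not genes of the lineage. For *Erbb3* the 5 most alike were *Rgs22* (r = 0.972), *5830487J09Rik*, *Nxpe4*, *Limch1* and *Exd2*, the last at r = 0.963. For *Ngfr* they were *Fahd2a* (r = 0.946), *Zfp433*, *Gm26710*, *Spryd7* and *Tpp1*, and for *Gfra3* they were *Nanos3* (r = 0.954), *Cntnap4*, *Gm13341*, *Dmrtc1a* and *Lrmda*. For *Foxd3* they were *Dusp16* (r = 0.948), *Gadd45g*, *2610035D17Rik*, *Gcnt2* and *Atcay*, and for *Egr2* they were *Gm11940* (r = 0.949), *Rgs20*, *Lrrc73*, *Csmd3* and *Grid2ip*. For *Fabp7* they were *2810430I11Rik* (r = 0.951), *Gm49331*, *1500002C15Rik*, *Sult6b1* and *Tcf15*, and for *Mbp* they were *Meox1* (r = 0.951), *E130006D01Rik*, *B430010I23Rik*, *Nfe2* and *Inppl1*. No member was among the 5 genes most like another member. These are the highest of 17796 values or more for each member over 9 points, which share genotype and dissection, and only 4 of the 35 genes stayed in their list once the genotype means were taken out.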

How the data were processed

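Cochlear ducts of both inner ears of 1 embryo gave 1 library, with 3 littermates per genotype. The authors trimmed and aligned the reads to mm10 (the submitters' processing notes name cutadapt 1.13, STAR and HTSeq 0.6.1p1) and deposited raw counts per Ensembl gene. Strand setting and annotation release are not given in the sources used here. Names and lengths came from GENCODE vM21, which named 54165 of 54232 genes. *Foxd3* shares exon bases with a miRNA gene, which had 0 counts.

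Counts were fitted pairwise with edgeR 4.0.16 (R 4.3.3; TMM, filterByExpr with a minimum count of 10, glmQLFTest, Benjamini-Hochberg). A call needed an adjusted p under 0.05 together with a log2 fold change beyond 0.5 in size. The SE of an edgeR log2 fold change was derived from its value and the F statistic of its test. The 95% intervals use that SE with a t quantile. Log2 CPM used a prior count of 2. DESeq2 1.42.0, limma-voom (limma 3.58.1), other normalizations and filters, a common fit, a replicate block and fits without 1 embryo were alternatives. On counts simulated for null against WT, edgeR called 25 of 50 genes raised by a fold of 2 and 43 of 50 raised by a fold of 4, 21 of 48 lowered to 0.5 and 34 of 46 lowered to 0.25 of their level, and 13 of 16643 unchanged genes.

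The members and lists were chosen with earlier results of these data known. Named genes were the members, the 5 genes most like each, called genes of the lists and up to 4 further genes of a list by mean level, besides genes named as detection checks. Some genes of the lists are not reported here. No 2 libraries of a genotype agreed within sampling noise. P-values measure the spread between littermates.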

Additional observations from a re-analysis of the deposited data

How the results depend on the processing

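No member was called by edgeR as fitted in the report, and 0 were called under every alternative but 2: 1 member in heterozygote against WT with no filter on low counts and 1 in null against heterozygote with DESeq2, *Fabp7* in both. The cause was not tested. Calls over all genes moved too, with 609, 298 and 360 by DESeq2 against 293, 26 and 105. In heterozygote against WT, all 9 libraries in one fit gave 0 calls and no filter gave 684. What the replicate numbers mark is not stated in the sources used. Correlations of deviations from the genotype means ran from -0.284 to 0.202 between same-numbered libraries and from -0.327 to 0.349 between the others. These ranges overlap and cannot decide whether equal numbers pair embryos. The replicate block called 0 members in each comparison and 133, 197 and 52 genes, lost the call of *S100b* in null against heterozygote (1.82, adjusted p = 0.0906) and moved *Ngfr* in heterozygote against WT to -0.00018. Among the log2 fold changes of the members, 19 of 233 alternative values had the opposite sign and 2 newly passed.

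Those that turned in null against WT were *Egr2* with limma-voom (-0.0078), *Egr2* over fits without 1 embryo (-0.58 to 0.54; -0.037 without WT embryo 1), *Fabp7* (-0.19 to 0.41, and -0.14 without null embryo 3), *Foxd3* (-1.10 to 0.11) and *Ngfr* (-0.10 to 0.14). *Ngfr* turned in heterozygote against WT with limma-voom (-0.023) and between -0.21 and 0.22 without 1 embryo. In null against heterozygote *Ngfr* gave -0.16 to 0.27 (-0.14 without null embryo 2) and *Egr2* -0.21 to 0.90. Without WT embryos 1 and 2 and null embryo 3, an alternative chosen after the marker sums were seen, null against WT gave -0.65 for *Fabp7* and -0.94 for *Egr2*, heterozygote against WT gave -0.0066 for *Erbb3*, -0.024 for *Mbp* and -0.040 for *Ngfr*, and null against heterozygote gave -0.21 for *Egr2*; the lone WT library was taken to vary like the others. The causes were not tested. Of the 35 genes most like a member, 4 stayed when genotype means were removed. *Foxd3* (2 to 26 counts per library) and *Gfra3* (0 to 15) had few counts, and the floors cover counting error only.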
